A study of Mus musculus with 6 samples.

Results

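The genes described are 9 members of the IL-1 family and inflammasome system, chosen by name: the ligands *Il1a*, *Il1b* and *Il18*, the receptor antagonist *Il1rn*, the receptors *Il1r1*, *Il1r2* and *Il1rap*, and the inflammasome genes *Nlrp3* and *Pycard*. Of these 9 genes, 8 had a probe named in the annotation used here, with 17 probes. Of these, 14 probes of all 8 genes passed the detection filter and were tested. They stand among 8921 genes and 16071 probes tested in all. No probe is listed for *Il1r1* in this annotation, and no value is given for it. The annotation names only probes present in the authors' values. Whether unnamed probes on the array measure *Il1r1* or other members was not tested. Marrow of male C57BL/6 mice was cultured for 10 days in 20 ng/ml GM-CSF to give BMDCs, bone marrow-derived dendritic cells. The authors state 3 biological replicates, and the labels do not say whether the groups share mice. All cells were then held for 6 h in 5 ng/ml GM-CSF, the control cells without further addition and the IL-4 cells with 20 ng/ml recombinant IL-4, giving 3 arrays per group. The comparison asks how IL-4, the archetypal type 2 cytokine, changed the RNA of these cells, which are a culture of bone marrow cells and not a sorted population.

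IL-1α and IL-1β signal through IL-1R1, which needs the accessory chain IL-1RAP, and the signal runs through MyD88 and the IRAK kinases to NF-κB. Both the antagonist IL-1RN, which occupies the receptor without signalling, and the decoy receptor IL-1R2, which binds IL-1 but cannot signal, hold the pathway back. IL-1β and IL-18 are made as precursors that caspase-1 cuts after an inflammasome has formed, for instance from NLRP3 and the adaptor ASC, the product of *Pycard*. Dendritic cells and other myeloid cells are known sources of IL-1, and the arrays measured RNA only, not cut or secreted protein.

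Levels are log2 bead signals after background correction and quantile normalization, and differences are IL-4 minus control on that scale. A gene passed at an adjusted p under 0.05 in limma, adjusted over all 16071 probes, and the brightest tested probe stands for a gene. Arrays of the same replicate number deviated together and were taken as those of 1 mouse, which the labels do not state. Each difference is therefore given without and with the replicate number as a block. Raw array medians ran from 83.9 to 121.3 and 33.0% to 38.0% of the probes were detected per array. The p-values measure only the spread between these arrays, whose number limits the precision of every value. In such bulk RNA, fewer cells of a type and less RNA per cell cannot be told apart.

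Among the members, the 2 that hold IL-1 back, *Il1rn* and *Il1r2*, fell with IL-4 in the blocked fit, to 51.6% and 57.0% of the control level. No other member passed. Without the block 0 of the 8 tested members passed in limma, against 0.123% of all tested genes, and 3 of the 8 had an unadjusted p under 0.05 (*Il1rn* and *Il1r2* lower, *Pycard* higher), as had 368 genes lower and 380 higher of all 8921 tested. With the block 2 of 8 passed, both lower, where 2.66% of all tested genes passed and 1.01% passed as lower. By probes, 3 of the 14 tested passed with the block, against 2.27% of all probes. The median difference over the 8 members was -0.21, with 3 above 0 and 5 below, and over all tested genes it was -0.01 with 4213 above 0 and 4708 below. The 3 control and 3 IL-4 arrays did not overlap for 2 of the 8 members, *Il1rn* and *Pycard*, and for 13.4% of all tested genes.

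**Figure D1:**
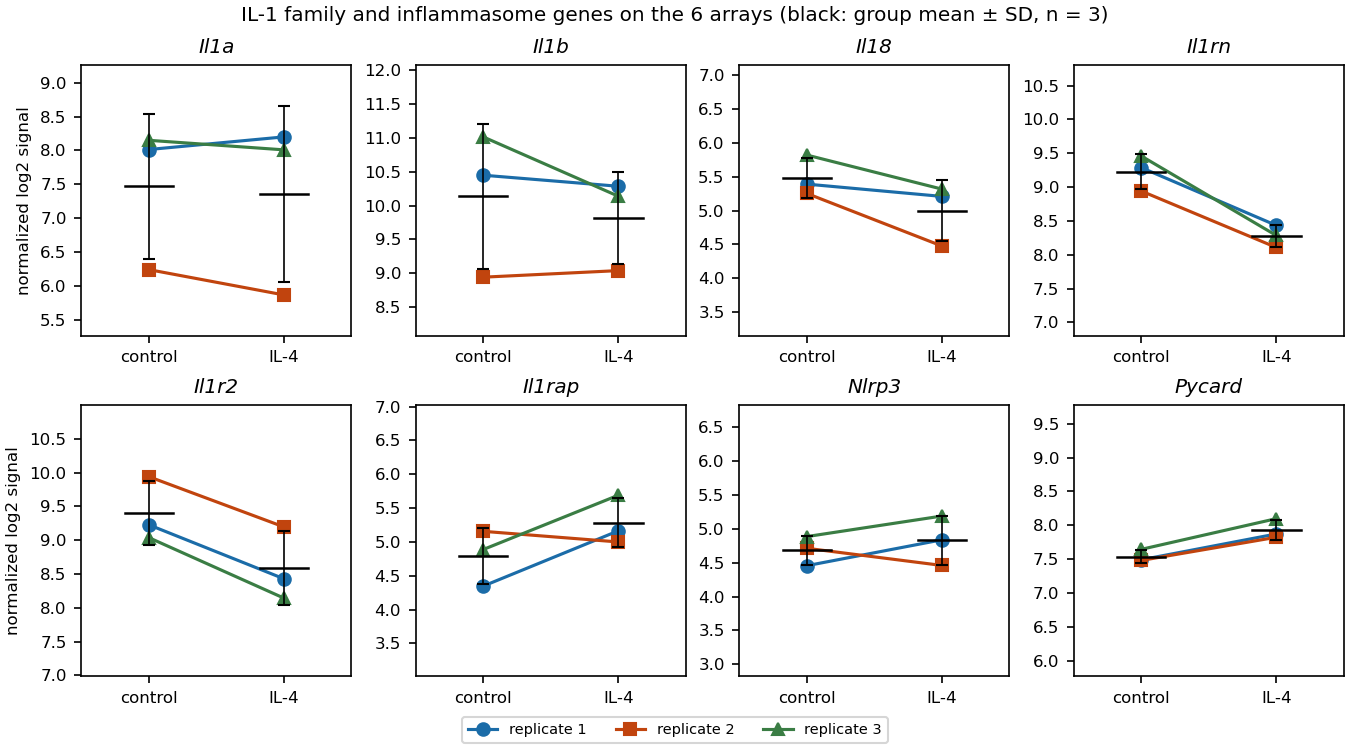
Normalized log2 signal of the 8 measured members on each control and IL-4 array, with lines joining arrays of the same replicate number and black marks for the mean ± SD (n = 3). In the *Il1rn*, *Il1r2* and *Il18* panels all 3 lines fall, and in the *Pycard* panel all 3 rise. In the *Il1a* and *Il1b* panels replicate 2 lies below the others in both groups.

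The start regions of the 2 genes that fell and of the 2 IL-1 ligands that did not pass are shown, since IL-4 acts through the factor STAT6. The windows of *Il18*, which did not pass either, and of the other *Il1rn* starts are not printed. The printed set is therefore no comparison of genes that fell with genes that did not. RefSeq start windows (assembly GRCm38.p6) were found for all 9 members, 13 windows in all, and the 250 bases before the start were read 5′ to 3′ on the gene's strand. Searched on both strands were TTC followed by GAA after a gap of 4 bases of any kind, the spacing preferred by STAT6, the same with a gap of 3, the spacing of other STAT factors, the κB consensus of NF-κB, and TATAAA, known as the TATA box. The first 2 motifs read the same on both strands, and no matches overlapped in the windows printed. Capitals mark the matches. The windows lie at chr2:24345041-24345290 on the plus strand for *Il1rn* (the second of 3 listed starts), chr1:40085843-40086092 on the plus strand for *Il1r2*, chr2:129371140-129371389 on the minus strand for *Il1b* and chr2:129309973-129310222 on the minus strand for *Il1a*.
Il1rn: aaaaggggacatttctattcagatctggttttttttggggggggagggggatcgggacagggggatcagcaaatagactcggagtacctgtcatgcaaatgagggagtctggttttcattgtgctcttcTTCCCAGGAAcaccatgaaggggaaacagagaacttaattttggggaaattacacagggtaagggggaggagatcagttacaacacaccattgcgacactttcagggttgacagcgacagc
Il1r2: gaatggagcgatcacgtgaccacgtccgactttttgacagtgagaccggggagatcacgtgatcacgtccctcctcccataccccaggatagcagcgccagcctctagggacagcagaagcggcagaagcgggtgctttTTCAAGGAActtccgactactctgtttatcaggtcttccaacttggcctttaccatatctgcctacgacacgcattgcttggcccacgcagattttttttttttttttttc
Il1b: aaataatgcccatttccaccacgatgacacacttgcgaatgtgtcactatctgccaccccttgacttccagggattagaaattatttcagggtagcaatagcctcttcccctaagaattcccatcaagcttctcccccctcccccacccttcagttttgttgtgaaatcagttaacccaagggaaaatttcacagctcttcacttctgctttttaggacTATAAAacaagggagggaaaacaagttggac
Il1a: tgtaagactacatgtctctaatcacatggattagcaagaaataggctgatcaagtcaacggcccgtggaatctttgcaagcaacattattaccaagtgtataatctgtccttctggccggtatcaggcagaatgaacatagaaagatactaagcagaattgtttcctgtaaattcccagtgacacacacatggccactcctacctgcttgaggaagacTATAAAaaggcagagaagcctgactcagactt

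The *Il1rn* window held TTCCCAGGAA, starting 121 bases before the start, a match to the longer STAT motif. The third *Il1rn* window overlaps it and holds the same match, and the first holds none. In the *Il1r2* window the shorter motif matched as TTCAAGGAA, starting 111 bases before the start. Neither printed ligand window held a STAT match, and both held TATAAA, starting 31 bases (*Il1b*) and 32 bases (*Il1a*) before the start. The longer motif was also in the windows of *Il18* and of the second *Nlrp3* start, genes that did not pass. Over all 32851 RefSeq windows, 5.85% held the motif with a gap of 4, 7.02% that with a gap of 3 and 12.4% TATAAA. Of the 13 member windows 4, 1 and 3 did, where the 4 count the shared *Il1rn* match in both its windows. The remaining TATAAA match was in *Il18*, on the opposite strand and 175 bases before the start. The κB consensus was in 3.9% of all windows, in 2 of the 13 and in none of the 4 printed. A match is a run of letters and not a bound site.

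*Il1rn*, the antagonist, was measured by 3 named probes. The brightest (ILMN_3072427) read 9.29, 8.94 and 9.46 on control arrays 1, 2 and 3 and 8.43, 8.11 and 8.28 on those with IL-4. All 3 IL-4 arrays lay below all 3 control arrays. The group means were 9.23 ± 0.26 and 8.28 ± 0.16 (SD, n = 3), a difference of -0.95 (SE 0.19, 95% interval -1.38 to -0.53). In limma its adjusted p was 0.147 without the block and 0.00676 with it (SE 0.16), and the within-pair differences were -0.85, -0.83 and -1.18. Before normalization the bead signals were 390.4, 575 and 956 in control and 441, 279 and 554 with IL-4, and the IL-4 array of replicate 1 was the brighter of its pair. That pair also differed in its median raw signal, at 83.9 for control and 99.5 for IL-4.

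The second *Il1rn* probe (ILMN_2682566), which is annotated to another transcript of the gene, read 9.27, 8.53 and 9.04 in control and 8.31, 8.15 and 8.13 with IL-4. Again the groups did not overlap, and the difference was -0.75 (SE 0.21, 59.4% of control). Its adjusted p was 0.346 in limma without the block and 0.036 with it. The blocked value was 0.0881 without replicate pair 1, 0.213 without pair 3 and 0.0596 without background correction, so this probe's call rested on all of these. The third probe (ILMN_3151270) was dim and was detected on 3 control and 2 IL-4 arrays, at 5.41, 5.24 and 5.30 against 4.85, 4.63 and 4.89. It lay lower in all 3 pairs without passing, at -0.53 (SE 0.16, adjusted p 0.427, and 0.12 with the block). The size of this dim probe's difference followed the background correction, from -0.53 to -0.26 with a larger offset of 50 and to -0.15 with no background correction. The 3 probes of 1 gene share their RNA and are not replicates of each other.

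*Il1r2*, the decoy receptor, had 1 named probe. It read 9.23, 9.94 and 9.04 in control and 8.43, 9.20 and 8.14 with IL-4. The groups overlapped, since the IL-4 array of replicate 2 lay above the control array of replicate 3, yet each IL-4 array lay below the control array of its own number. The means were 9.40 ± 0.48 and 8.59 ± 0.54 (SD, n = 3) and the difference was -0.81 (SE 0.31, 95% interval -1.51 to -0.11). The within-pair differences of -0.80, -0.74 and -0.89 spread less than the levels did. The adjusted p in limma was 0.596 without the block and 0.0135 with it (SE 0.15), and without replicate pair 3 the blocked value was 0.0896. With the authors' log2 values in place of the bead signals the blocked adjusted p was 0.118 for *Il1rn* and 0.11 for *Il1r2*, so neither passed there, at differences of -0.88 and -0.75.

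**Figure D2:**
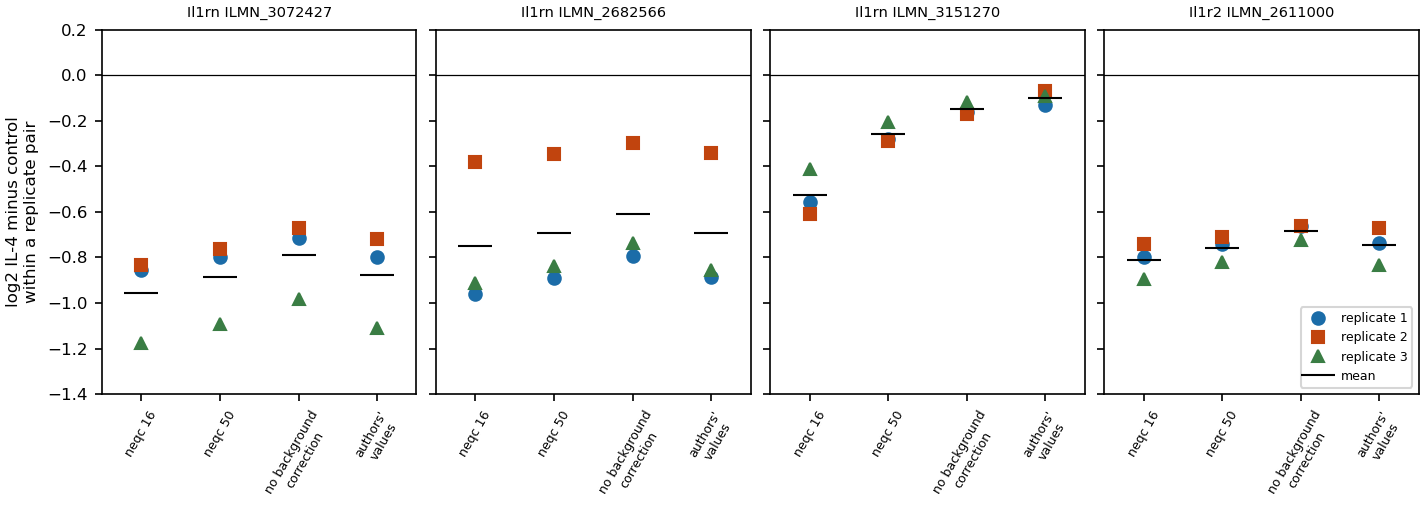
IL-4 minus control within each replicate pair (points) for the 3 *Il1rn* probes and the *Il1r2* probe under 4 ways of processing the bead signals. The bright *Il1rn* probes and *Il1r2* lie below 0 in every pair under each processing, and the dim *Il1rn* probe lies nearer 0 with a larger offset, without background correction and in the authors' values.

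*Il1b*, the ligand that caspase-1 cuts, read 10.45, 8.94 and 11.02 in control and 10.29, 9.04 and 10.14 with IL-4. Replicate 2 was the lowest of each group and the groups overlapped. The difference was -0.31 (SE 0.51, adjusted p 0.973, limma), and with the block its 95% interval was -0.73 to 0.10 (adjusted p 0.536). *Il1a*, whose product is active without caspase-1, read 8.01, 6.24 and 8.15 in control and 8.20, 5.86 and 8.01 with IL-4 on its brighter probe. The replicate number parted these arrays far more than the treatment did. Its difference was -0.11 on each of 2 probes, with adjusted p-values of 0.842 and 0.843 with the block and a 95% interval of -0.47 to 0.25 for the brighter one.

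*Il18*, an inducer of interferon-γ in T cells and NK cells, was close to the detection limit. It read 5.39, 5.25 and 5.82 in control and 5.21, 4.48 and 5.32 with IL-4, and the IL-4 array of replicate 2 did not detect it. Each IL-4 array lay below its control partner while the groups overlapped. The difference was -0.49 (SE 0.25), with an adjusted p of 0.775 in limma and 0.194 with the block. In the authors' values the mean difference was -0.11. A second *Il18* probe was detected on 2 control arrays and no IL-4 array, and was not tested.

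*Il1rap*, the accessory chain shared by several IL-1 family receptors, read 4.35, 5.16 and 4.89 in control and 5.16, 5.00 and 5.69 with IL-4. Its probe was not detected on control array 1, the array with the fewest detected probes. The difference was 0.49 (SE 0.25, adjusted p 0.778, limma; 0.299 with the block), with pair differences of 0.82, -0.16 and 0.80. Further *Il1rap* probes gave 0.43 and 0.25, with blocked adjusted p-values of 0.29 and 0.645, and a further one was too dim to test. When replicate pair 2 was left out of the blocked fit, *Il1rap* passed at 0.81 (adjusted p 0.0169), a value that rests in part on the undetected control array. The other tested *Il1rap* probes did not pass there, with adjusted p-values of 0.0598 and 0.158. In the fit of all arrays the difference of 0.49 was 0.24 with the offset of 50, 0.15 with no background correction and 0.098 in the authors' values.

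*Nlrp3*, the sensor that gives the inflammasome its name, was dim, at 4.46, 4.71 and 4.89 in control and 4.84, 4.46 and 5.19 with IL-4. It was detected on 2 arrays of each group, the groups overlapped, and the difference was 0.14 (95% interval -0.35 to 0.63, adjusted p 0.972, limma). *Pycard*, whose product ASC links NLRP3 to caspase-1, read 7.49, 7.48 and 7.64 in control and 7.87, 7.82 and 8.10 with IL-4. All IL-4 arrays lay above all control arrays on this probe, by 0.38, 0.34 and 0.45 within the pairs. The difference of 0.39 (SE 0.16, 131% of control) did not pass, with an adjusted p of 0.654 in limma and 0.259 with the block. The dimmer *Pycard* probe, detected on 2 control and 3 IL-4 arrays, differed by 0.01 (adjusted p 0.998), with a 95% interval of -0.58 to 0.60 that holds the value of the brighter probe.

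**Figure D3:**
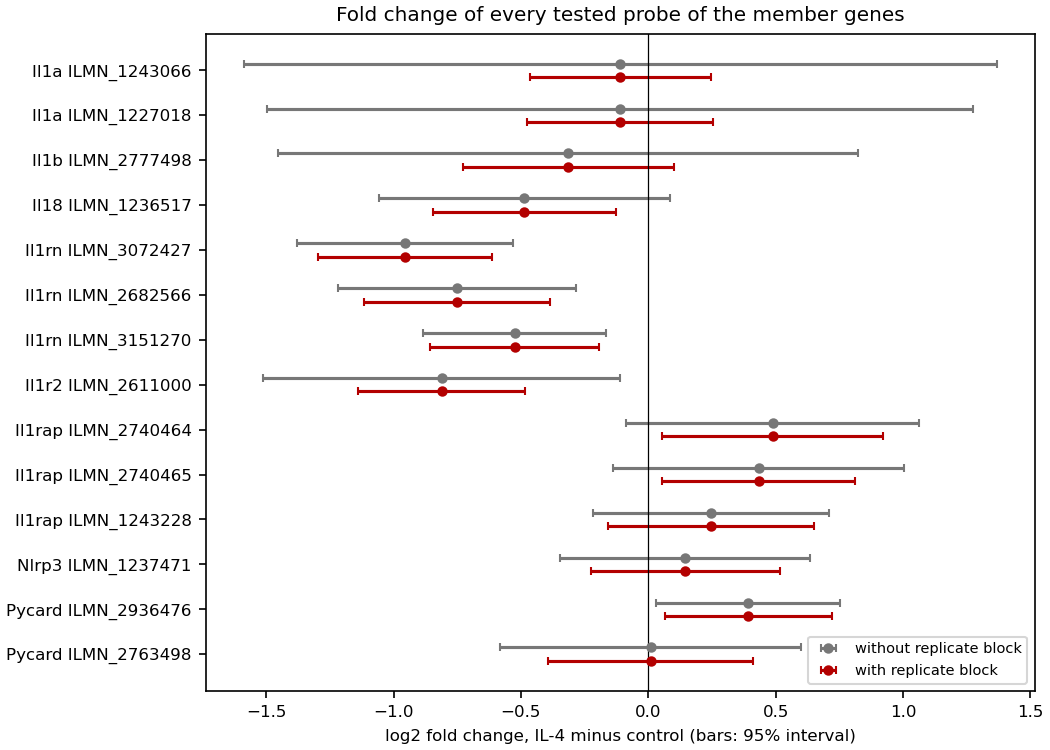
IL-4 minus control on the log2 scale for the 14 tested member probes, with 95% intervals from limma without and with the replicate block. The intervals of *Il1a*, *Il1b* and *Il1r2* are much narrower with the block, and the probes with an adjusted p under 0.05 are 2 of *Il1rn* and the 1 of *Il1r2*.

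The members also differed by replicate number, here given as a description with no test. Replicate 2, averaged over both groups, differed from the mean of replicates 1 and 3 by -2.04 log2 units for *Il1a* (24.3% of their level) and by -1.48 for *Il1b* (35.8%). *Il1r2* went the other way, by 0.86 (181%). *Il1rn* differed by -0.34 (78.9%) and *Il18* by -0.57, and *Pycard*, *Il1rap* and *Nlrp3* lay within 0.26 of the other replicates. The arrays of replicate 2 also stood apart in markers of other cells. The summed signal of 9 measured neutrophil markers of 11 was 33230 and 33840 on the replicate 2 arrays and 7503 to 10030 on the others, with 8 of the 9 higher. For 5 measured mast cell and basophil markers of 9 it was 6553 and 5765 against 445.6 to 966.1, with 4 of 5 higher. Macrophage and monocyte markers, 10 measured of 13, summed to 6307 and 5926 against 7504 to 8611, with 8 of 10 lower. The offset of 16 keeps every normalized signal above 0, so these sums cannot show whether such cells were absent from an array. The part of these cells in the member levels was not tested. Dendritic cell markers, 8 measured of 9, summed to between 32820 and 35680, but most of that sum came from *Cd74* and *H2-Ab1*, at 13.65 to 14.12 on all arrays. Dimmer ones varied by replicate, as *Itgax* did at 7.33, 6.63 and 6.33 in control and 7.07, 6.79 and 6.62 with IL-4. Of the 8, *Batf3* and *Irf4* rose with IL-4 in the blocked fit (adjusted p 0.0104 and 0.0101, limma).

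Between the groups, 3 of the 9 neutrophil markers lay above 0 and 6 below, with a median difference of -0.09. The 1 that passed was *Cxcr2*, a chemokine receptor, which rose by 3.00 log2 units with IL-4 (adjusted p 0.00939, limma). The lowest was *Ltf*, a granule protein gene, at -0.31.

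**Figure D4:**
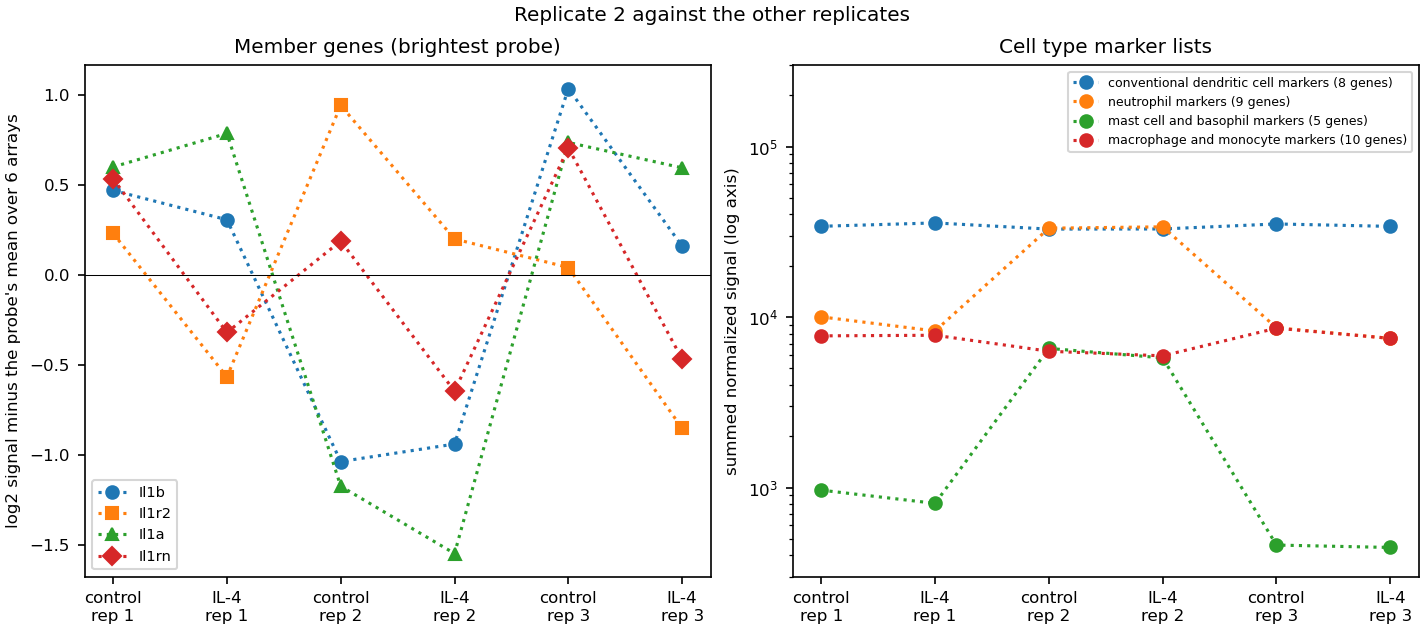
Left, the log2 signals of *Il1b*, *Il1r2*, *Il1a* and *Il1rn* by array, each minus its own mean over the 6 arrays. Right, the summed signal of 4 lists of cell type markers by array on a log axis. On both replicate 2 arrays *Il1a* and *Il1b* are low, *Il1r2* is high, and the neutrophil and mast cell sums are high.

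The other genes of the pathway were read from 4 lists, in which 0 genes passed in limma in either fit. Of 14 listed signalling genes 12 were tested, with 3 above 0 and 9 below and a median of -0.16. At an unadjusted p under 0.05 with the block, 2 of them were lower and 0 higher, where 706 of all 8921 tested genes were lower and 642 higher. The smallest blocked p belonged to *Irak3*, a kinase relative that damps signalling from IL-1 and Toll-like receptors. It read 8.36, 7.99 and 7.88 in control and 7.30, 7.29 and 7.57 with IL-4, without overlap. Its difference of -0.69 (SE 0.18) had an adjusted p of 0.323 and of 0.0647 with the block. *Tab2*, an adaptor of the kinase TAK1, differed by -0.40, the kinase *Irak2* by -0.34 and the adaptor *Myd88* by -0.24, with blocked adjusted p-values of 0.282, 0.427 and 0.562. Dimmer probes gave -0.49 and -0.29 for *Irak2* and 0.09 for *Myd88*. The kinase *Irak1*, added after its values were seen, differed by 0.19 on its brightest probe and by 0.57 and -0.02 on dimmer ones. Their blocked adjusted p-values in limma were 0.689, 0.147 and 0.977.

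Among 24 other inflammasome genes 14 were tested, of which 2 lay above 0 and 12 below, with a median of -0.23. With the block 5 were lower and 1 higher at an unadjusted p under 0.05, to be read beside the 706 and 642 of all 8921 genes. *Nlrc4*, which assembles an inflammasome with NAIP sensors of bacterial proteins, read 5.82, 5.37 and 6.42 in control and 5.17, 4.99 and 5.61 with IL-4. It was lower in each pair while the groups overlapped, and its difference of -0.61 had an adjusted p of 0.698 and of 0.0737 with the block. *Txnip*, a thioredoxin-binding protein, differed by -0.53 (blocked adjusted p 0.137), *Mefv*, which encodes pyrin, by 0.50 (0.17), and *Trim30a* by -0.42 (0.257). *Casp1* and *Gsdmd*, the protease and the pore protein downstream of the inflammasome, were added after their values were seen, and differed by -0.10 and -0.17 with blocked adjusted p-values of 0.854 and 0.735.

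Of 7 other receptors 3 were tested, with 1 above 0 and 2 below. *Sigirr*, an inhibitory receptor of the family, differed by 0.51 (blocked adjusted p 0.131), and the IL-18 receptor chains *Il18rap* and *Il18r1* by -0.44 (0.211) and -0.15 (0.786). A further probe of *Il18rap* gave -0.02 (0.973) and a further, dimmer probe of *Il18r1* gave -0.43 (0.218). The *Il18rap* probe that stands for the gene was detected on 3 control arrays and 1 IL-4 array, and that of *Sigirr* on 2 and 3. Of 7 other ligands and binding proteins *Il18bp*, whose product neutralises IL-18, was the 1 tested, at -0.33 (blocked adjusted p 0.51).

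**Figure D5:**
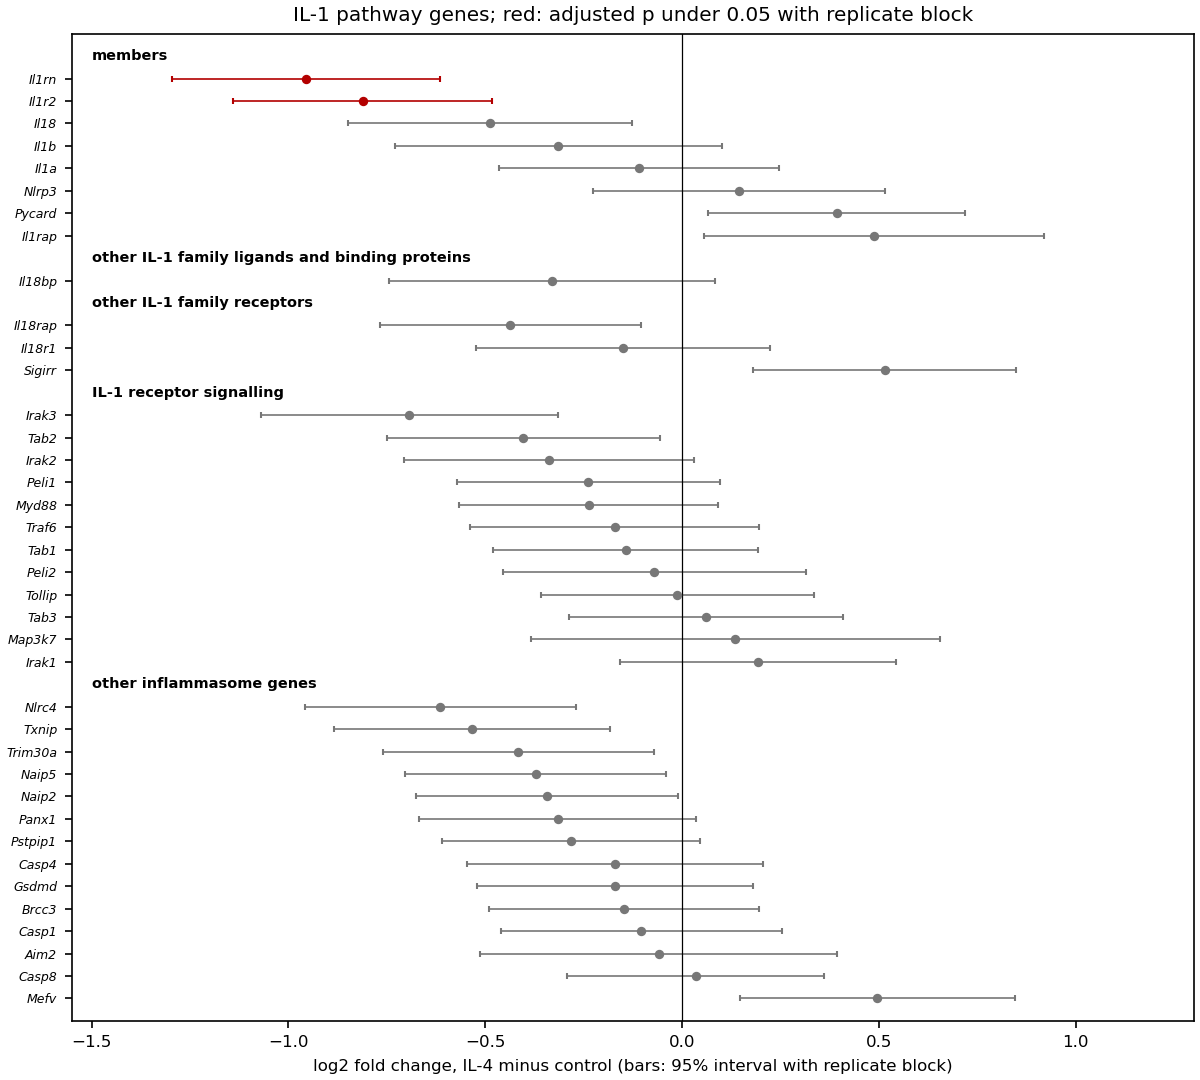
IL-4 minus control on the log2 scale for the tested genes of the IL-1 and inflammasome lists by brightest probe, with 95% intervals from the blocked fit. *Il1rn* and *Il1r2*, in red, are the genes with an adjusted p under 0.05, and most signalling and inflammasome genes lie below 0 by less than these 2.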

How the data were processed

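BMDCs in 3 biological replicates per group, cultured with or without IL-4, were measured on 6 Illumina MouseWG-6 arrays. For 45281 probes the authors deposited bead signal intensity without normalization and detection p-values. The authors also deposited log2 values of 19293 probes, made with lumi (variance-stabilizing transformation, robust spline normalization) and tested in limma. Neither version is stated in the sources used here.

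Here the bead signals were background-corrected and quantile normalized with neqc (offset 16) of limma 3.58.1 in R 4.3.3. The 16071 probes detected (p under 0.05) on 3 or more arrays were fitted with lmFit and eBayes, two-sided, adjusted by Benjamini-Hochberg. Figures used matplotlib 3.10.9 in Python 3.11.15. Symbols came from the platform annotation of the 19293 probes in the authors' values, where 16243 had 1 gene, 8 several and 3042 none. The other probes on the array had no symbol here, and 13600 of the 16071 tested probes had 1 gene. RefSeq held 16223 of these identifiers and 0 symbols changed.

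Same-numbered arrays correlated in their deviations from the group means (0.292, 0.549 and 0.624, others -0.549 to 0.096), above the threshold of 0.1, so a fit with the replicate block was run beside the unpaired one. The fits were tested on simulated data with a replicate effect shared by both groups built in. That test therefore cannot show whether the pairing holds in these arrays. Members were named in full, with up to 4 genes per pathway list by smallest blocked p. Members and lists were chosen with earlier results of these data known. Alternatives were other offsets, no background correction, the authors' values, other detection filters, an intensity trend, and leaving out arrays or pairs.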

Additional observations from a re-analysis of the deposited data

How the results depend on the processing

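Over all probes, 18 passed. Of the other settings without the block, a larger offset gave 19, no background correction 13, detection on all arrays 13 and an intensity trend 19. The authors' log2 values gave 0 in limma (1330 at an unadjusted p under 0.05) and no detection filter gave 1. The refit of the authors' values used 15888 of their probes. The paper itself reports genes significantly altered after adjustment, so this 0 differs from the authors' own result, for reasons not tested. Leaving out 1 array gave 1 to 67, the lowest without control replicate 1 or IL-4 replicate 1, the highest without IL-4 replicate 2. The replicate block gave 365. Chosen after seeing the data were the blocked fits with other processing and those without pair 1 or pair 3. The block gave 348 without pair 1, 842 without pair 2, 266 without pair 3, 431 with the larger offset, 241 without background correction and 0 with the authors' values (2154 at an unadjusted p under 0.05).

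Of the members, 0 passed in limma in every unpaired setting, leaving out each array included (0 to 0, with 1 to 4 at an unadjusted p under 0.05). With the block 2 passed, *Il1rn* and *Il1r2*. The same 2 passed without pair 1, with the larger offset and without background correction. These fits reuse the same arrays. Over the member probes the SE ran only from 0.2087 to 0.2115 without pair 1 and from 0.2432 to 0.246 without pair 3. In both fits it thus reflects mostly a spread shared over all probes. The blocked fit of all arrays left 2 residual degrees of freedom, so the shared spread enters there too, at SEs of 0.1505 to 0.1989. Without pair 2 there were 3, with *Il1rap*, and without pair 3 there was 1, *Il1rn* (adjusted p 0.0432). With the authors' values and the block 0 passed, 3 having an unadjusted p under 0.05, at adjusted p-values of 0.118 for *Il1rn* and 0.11 for *Il1r2*. Over all settings the difference of the brightest *Il1rn* probe ran from -1.10 to -0.79 and that of *Il1r2* from -1.11 to -0.54. The mean over the tested *Il1rn* probes was -0.74.

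Directions turned for members whose difference without the block was smaller than its SE. Leaving out 1 array, *Il1a* ran from -0.72 to 0.64, *Il1b* from -0.91 to 0.13 and *Nlrp3* from -0.036 to 0.33, and with the block *Il1a* was 0.023 without pair 2. The causes were not tested. Signal close to background limits *Il18*, *Il1rap*, *Nlrp3* and the dim *Il1rn* probe.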

Other observations

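Over the 6 arrays, the genes whose brightest probe followed that of *Il1rn* most closely among 8913 others were *Smox*, *Yeats2* and *Avl9*, each with a Pearson correlation of 0.99. The points share 6 arrays, among them the step between the groups, and the values are a description. *Smox*, a polyamine oxidase, differed by -0.44 between IL-4 and control (adjusted p 0.208 with the block, limma), *Yeats2* by -0.20 and *Avl9* by -0.26. None of the 3 passed with or without the block.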
